A study of Caenorhabditis elegans with 2 samples.

Results

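The loci described here are the 276 genes annotated as tRNA genes on chromosome X of Caenorhabditis elegans, out of 612 nuclear tRNA genes in the Ensembl models of WBcel235, the assembly that genome browsers call ce11. Each gene was widened by 200 bp on both sides, and a locus was said to have a peak when the summit of a reproducible peak lay in that window. The other 336 nuclear tRNA genes lie on the autosomes, and 29 genes on X are annotated as tRNA pseudogenes. Chromatin immunoprecipitation with sequencing (ChIP-seq) was done on 1 group of 2 biological replicates, with no second group to compare. Per the labels, these were whole young adult hermaphrodites of strain RW10316, collected 64 hours after their synchronization as starved L1 larvae from bleached adults. All carried DIE-1 with a C-terminal GFP-FLAG tag that was bound with an anti-GFP antibody. All cells of the animal that express the tagged protein contribute to one value, so the cell types behind a peak cannot be told apart. An immunoprecipitation from worms without the tag was not analysed here, so signal that needs DIE-1 cannot be told apart from signal that does not.

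tRNA genes are short and are transcribed by RNA polymerase III. Their promoter lies inside the gene, as an A box near the 5′ end and a B box further downstream, which the factor TFIIIC binds before TFIIIB and the polymerase arrive. Transcription ends at a run of T just after the gene. A worm carries many tRNA genes of the same sequence, a large part of them on X, and some lie inside introns of protein-coding genes. DIE-1 is a zinc finger protein with known roles in embryonic morphogenesis and in the asymmetry of a pair of taste neurons.

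Identical genes carry much of what follows, so the shared sequence of 6 sets of copies is shown, each with the X gene of highest signal in its set or the first of a set without peaks. They are taken from the gene strand of the RefSeq genome sequence of WBcel235, 5′ to 3′, with introns removed. The capitals mark the B box word GTTCNANNC. Each set is named by its isotype and anticodon, which genes of other sequence also carry on X and on the autosomes. Arg-ACG and Arg-TCG are shown because both sets lie on X alone and differed in their peaks. Arg-ACG had a reproducible summit in the window of every copy, with 9 of the 10 alone on theirs, and Arg-TCG had none. Pro-TGG is the set with the most X copies, the Leu-AAG and Tyr-GTA sets again lie on X alone, and 6 of the His-GTG genes form one of the largest arrays.
Arg-ACG, F09B9.t2: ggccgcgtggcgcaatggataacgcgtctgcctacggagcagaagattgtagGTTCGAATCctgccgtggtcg
Arg-TCG, F49E7.t3: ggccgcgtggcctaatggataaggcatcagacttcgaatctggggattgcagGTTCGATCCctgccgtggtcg
Pro-TGG, H06A10.t1: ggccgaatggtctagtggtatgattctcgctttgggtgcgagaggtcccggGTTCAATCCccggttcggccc
Leu-AAG, C04E7.t1: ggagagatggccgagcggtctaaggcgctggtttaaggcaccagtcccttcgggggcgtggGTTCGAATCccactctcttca
Tyr-GTA, C02B4.t2: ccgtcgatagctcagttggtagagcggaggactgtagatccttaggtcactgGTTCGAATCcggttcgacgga
His-GTG, C06G1.t1: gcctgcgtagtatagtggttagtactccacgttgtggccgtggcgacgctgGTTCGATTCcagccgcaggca

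Several genes found once in the genome differ from a set of copies by a single base. The lines below print 5 of them, with the differing base in capitals, because they sit on either side of the line between loci with and without a peak. In the tokens that follow, the first base is that of the nearest gene, the position is counted from 1 at the 5′ end of the gene, and the last base is that of the named gene. K01A12.t1 (C11G) and F42G10.t1 (G64A) differ from Arg-ACG, C36C9.t2 (T27C) differs from Arg-TCG, and K09A11.t1 (A45G) and R04D3.t4 (C78G) differ from Tyr-GTA, whose genes are printed here with their intron. The first 3 had no reproducible peak, although F42G10.t1 had summits of 89.6 and 69.9 in the replicate lists and none in the pooled list. The Tyr-GTA genes had a reproducible signal of 231 and 169.9.
K01A12.t1: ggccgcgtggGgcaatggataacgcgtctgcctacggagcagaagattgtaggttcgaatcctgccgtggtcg
F42G10.t1: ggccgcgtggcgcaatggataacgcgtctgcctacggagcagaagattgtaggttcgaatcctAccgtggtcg
C36C9.t2: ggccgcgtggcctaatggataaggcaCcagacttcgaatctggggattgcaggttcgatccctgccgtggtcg
K09A11.t1: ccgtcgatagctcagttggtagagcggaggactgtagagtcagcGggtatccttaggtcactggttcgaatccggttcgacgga
R04D3.t4: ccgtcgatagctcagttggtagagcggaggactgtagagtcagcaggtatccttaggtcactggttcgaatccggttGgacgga

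Of the 276 loci, 222 (80.4%) had a reproducible peak and 54 had none. The same rule called 4.41% of all nuclear genes (2070 of 46890) and 74.4% of the autosomal tRNA genes (250 of 336). Among the 29 tRNA pseudogenes on X, C33A11.t1 alone had a peak, with a signal of 79.8, a replicate 1 value of 35.6 and no summit in the replicate 2 list. The reproducible list held 1432 peaks, with signals from 79.4 up, and was drawn by the authors from the pooled peaks. At X loci with a peak, signal and rank were those of the pooled list. The highest pooled value at an X locus without one was 79.05. A peak of this list need not recur in each replicate. In the window, 2 X loci with a peak lacked a replicate 1 summit and 1 lacked a replicate 2 summit. Signal is the authors' enrichment value per peak, on a scale that is not given, and the files hold no counts, so the depth behind a value is unknown. At X loci with a peak it ran from 79.6 to 403, with a median of 188 and quartiles at 136 and 228. Autosomal tRNA loci with a peak had a median of 147, quartiles at 116 and 185, and a highest value of 348. The difference between the chromosomes was not tested, because loci share summits, reads and sequence and are not replicates.

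The 222 loci were covered by 197 different strongest summits. For 172 loci the strongest summit belonged to no other tRNA locus. In 25 pairs of neighbours the strongest summit was shared, so their 50 values are not separate measurements. There were 4 loci with several summits in the window, of which only the strongest was read. Of all 351 reproducible summits on X, 201 (57.3%) lay in a window. The peaks had a median width of 436 bp, several times the length of a tRNA gene. That was also the largest width, shared by 52.3% of them, and the smallest was 109 bp. The median is thus an upper limit of the widths in the list and not a measured breadth of binding.

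The highest signal belonged to a divergent pair, the Gly-TCC gene M02F4.t1 (X:3036164-3036235) and the Glu-CTC gene M02F4.t2 (X:3035976-3036047). Their shared summit had a signal of 403 in the reproducible list, 173 in replicate 1 and 233 in replicate 2. W03G11.t1, an isolated Lys-CTT gene (X:12106147-12106219), followed with 398, from replicate values of 162 and 238. F41D9.t3, an Asn-GTT gene in an intron of sulp-3 (X:8404499-8404571), had 383, with 164 and 219 in the replicates. These summits ranked 27, 28 and 30 among the 1432 peaks of the list.

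In him-4, the gene of the extracellular matrix protein hemicentin, the Ala-TGC gene F15G9.t1 and the Ala-AGC gene F15G9.t2 shared a summit of 379.5, with 173 and 210.2 in the replicates. C04A11.t1, a Leu-CAA gene with an intron that occurs once in the genome (X:13665555-13665673), had 377, with 144 and 232. The next 3 loci were C33G3.t2, a Lys-TTT gene (347, replicates 152 and 194), C28G1.t1, a Glu-TTC gene (337, replicates 166 and 171), and T25B6.t2, a Thr-TGT gene (328, replicates 137 and 189). C28G1.t1 is the 1 locus on X whose span overlaps an exon of a protein-coding gene, C28G1.2. In each of these loci replicate 2 gave the higher value.

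At the lower edge, the 5 weakest loci with a peak were R11.t4 (Tyr-GTA, 79.6), F52E10.t3 (Glu-CTC, 80.3), R04E5.t6 (Gly-GCC, 81.0), T06H11.t3 (Arg-ACG, 83.4) and K11E4.t5 (Lys-CTT, 84.8). The 5 strongest without one were C16H3.t2 (Val-AAC, 79.0), R11.t3 (Tyr-GTA, 75.4), the Pro genes ZK678.t2 and ZK678.t5 on 1 shared pooled summit (74.4), and F56F10.t1 (Tyr-GTA, 73.7), all read from the pooled relaxed list. C16H3.t2 lay under a reproducible peak whose summit, 206 bp away, fell just outside its window. Loci on either side of the line therefore differed by a few units of signal, and R11.t4 and R11.t3 are identical genes 478 bp apart.

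Both replicates placed summits at most of the loci. In the relaxed lists, which hold weak peaks and background, 251 loci had a replicate 1 summit, 244 had a replicate 2 summit, 239 had both and 256 had at least 1. Shortened to the 1432 strongest peaks, the replicate 1 list reached 207 loci (75%) and the replicate 2 list 224 (81.2%), against 67.9% and 74.7% of autosomal tRNA genes. There were 200 loci in both shortened lists. Of the 222 loci with a reproducible peak, 198 were in both, 24 were in 1 of them and 0 were in neither.

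The order of loci by signal was similar in the replicates, and the level was higher in replicate 2. Over 219 loci with a peak and both values, Spearman's rho was 0.804 and Pearson's r of log10 signal was 0.790, given as descriptions since the loci share libraries and were picked by their pooled signal. The medians were 77.5 in replicate 1 and 109 in replicate 2. Replicate 2 exceeded replicate 1 at 210 loci and fell below it at 9, with a median ratio of 1.46. Autosomal tRNA loci had a median ratio of 1.445, so the shift in level was not limited to X.

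**Figure D1:**
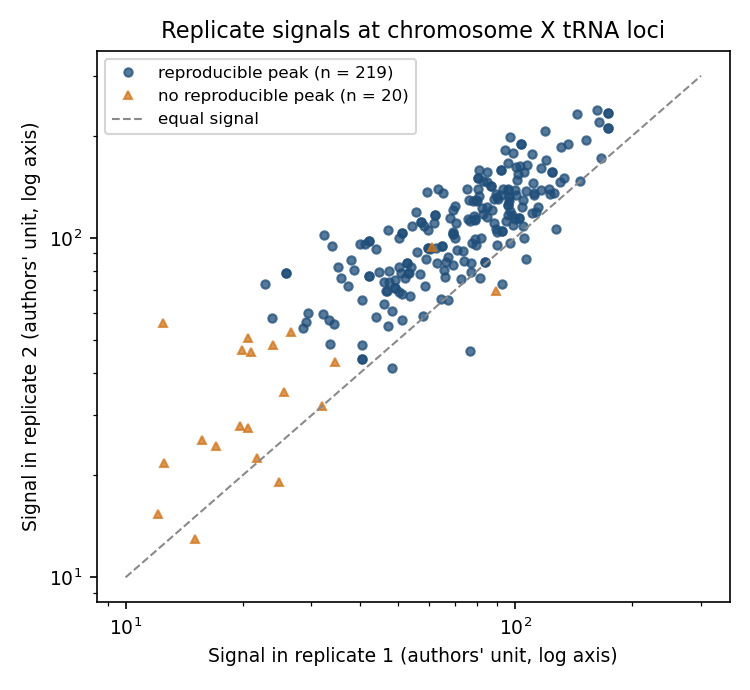
Signal of the strongest relaxed summit at each X tRNA locus in replicate 1 (x axis) and replicate 2 (y axis), in the authors' unit on log axes. Circles are the 219 loci with a reproducible peak, triangles the 20 without one, and most points lie above the dashed line of equal signal.

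A few loci departed from that ratio. F41D9.t2, an Arg-TCT gene without a reproducible peak, had 12.5 in replicate 1 and 56.1 in replicate 2, the largest ratio (4.50). R04E5.t5 (Cys-GCA, 22.9 and 73.1) and F59C12.t1 (Val-CAC, 32.3 and 102) came next, with ratios near 3.2. At the other end stood K11E4.t4 (Lys-CTT, 76.6 and 46.3), B0344.t3 (Ile-AAT, 24.7 and 19.1) and F42G10.t1 (Arg-ACG, 89.6 and 69.9), where replicate 1 was higher. With 1 value per replicate these departures have no error of their own. F22F1.t9 and F28H6.t7 had a peak with no replicate 1 summit in the window, and C06G1.t4 had one with no replicate 2 summit.

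By isotype, every locus for Ala (13 of 13), Asp (12 of 12) and Trp (5 of 5) had a peak. Median signal among loci with a peak was highest for Ala (238), Thr (214) and Asp (206) and lowest for His (132), Gln (133) and Cys (136). The lowest shares were those of Arg (15 of 27), His (5 of 9) and Tyr (5 of 8), next to 3 genes without an assigned isotype. Of these 3, only C28G1.t5 had a peak, with its summit 198 bp away inside a Gly gene. Gly had peaks at 15 of 20. On the autosomes Arg had 13 of 17, His 7 of 11 and Tyr 9 of 11.

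**Figure D2:**
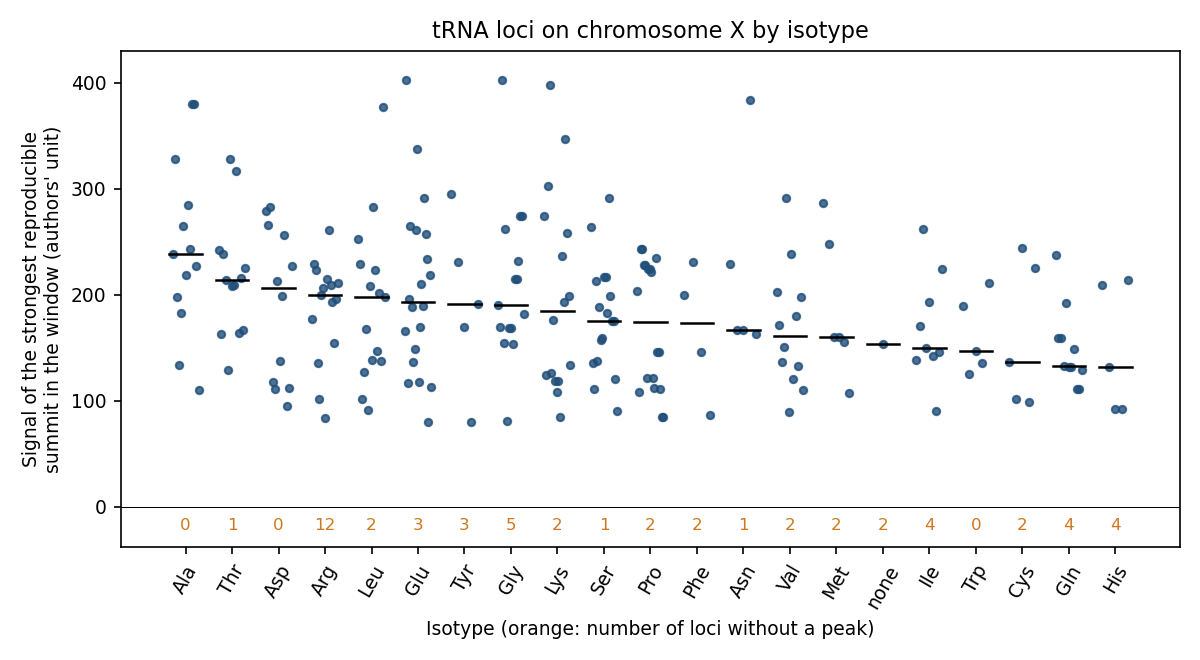
Reproducible signal (y axis, authors' unit) of each X tRNA locus with a peak, by isotype and ordered by median (black line). Each point is 1 locus, and the number below each column counts loci without a peak: 0 for Ala, Asp and Trp and 12 for Arg.

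The strongest locus of each remaining isotype shows how wide the top of the range was. C02B4.t2 (Tyr-GTA, in nhr-17) had 295 and R04D3.t2 (Val-TAC) had 291. F02D10.t2 (Ser-GCT) had 291 on a summit shared with the Glu-CTC gene rte-5, 36 bp from rte-5. A weaker summit of 158 lay nearer to F02D10.t2, at 31 bp, so 291 is not its own value alone. The Ser-GCT gene E03E2.t1, alone on its summit, had 264. C02F12.t1 (Met-CAT, in C01C4.3) had 287. Values between 231 and 283 were found at F52H2.t1 (Asp-GTC, 283), C42D8.t1 (Ile-AAT, 262), F09B9.t2 (Arg-ACG, 261), F12D9.t1 (Cys-GCA, 244), C16B8.t2 (Pro-AGG, 243), R04A9.t1 (Gln-TTG, 237) and T28B4.t1 (Phe-GAA, 231). The summit of C16B8.t2 also counted for the Pro-AGG gene C16B8.t3, 85 bp from it. C06G1.t1 (His-GTG) reached 214 and rtw-5 (Trp-CCA) 211. Other Trp genes are known from genetics, among them sup-7, whose mutant form is an amber suppressor. They are outside the naming rule and had 189 at sup-7, 147 at sup-28, 135 at sup-33 and 125 at sup-21, the weakest Trp locus on X.

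The anticodon was read from the sequence at 268 of the 273 X loci with an isotype, which gave 44 anticodons, and 21 of these had a peak at every locus. Among them were Ala-AGC (9 of 9), Glu-TTC (8 of 8), Thr-AGT (7 of 7) and Lys-TTT (5 of 5). Others had few loci, such as Ala-CGC, Leu-TAA, Leu-TAG and Pro-CGG with 1 each and Val-CAC with 2. With peaks at 80.4% of all X loci, a full count in such small groups says little. Arg divided by anticodon. Arg-ACG had peaks at 10 of 13 loci, Arg-TCT at 3 of 4 and Arg-CCT at 1 of 2, while Arg-TCG had 1 of 6 and the single Arg-CCG locus none. The Arg-TCG locus with a peak was F17A2.t1 (155, replicates 67.3 and 87.6), whose 3 identical copies are autosomal. At the other 5 Arg-TCG loci the pooled relaxed summit was between 19.1 and 63.1. That these are below the lowest reproducible value follows from the lack of a reproducible peak. The 3 autosomal Arg-TCG genes all had a peak. Genes with an intron, which on X read Tyr-GTA, Leu-CAA and Ile-TAT, had peaks at 9 of 12 loci.

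Most X tRNA genes, 219 of 276, have an identical copy elsewhere in the genome, in 49 sets. Loci with an identical copy had a peak at 188 of 219 (85.8%), and loci whose sequence occurs once at 34 of 57 (59.6%). On the autosomes the shares were 208 of 250 (83.2%) and 42 of 86 (48.8%). Median signals where a peak was present were 189.96 with an identical copy and 170.4 without.

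Members of a set share every base of the gene, so values within a set are compared at equal gene sequence. Reads that lie wholly inside such a gene match every copy. In the 13 Pro-TGG copies all loci had a peak, with signals from 85.0 at the pair Y7A5A.t3 and Y7A5A.t2 to 234.7 at H06A10.t1. Glu-CTC had peaks at 11 of 12 copies, from 80.3 at F52E10.t3 to 403 at M02F4.t2. The latter summit is shared with the Gly-TCC gene M02F4.t1 and lies 98 bp from the Glu-CTC gene and 19 bp from the Gly-TCC gene. Among Glu-CTC loci alone on their summit the highest value was 258, at rte-1. Gly-TCC had peaks at 9 of 11 copies, from 154 at C28G1.t4 to 403 at M02F4.t1, both on summits shared with a gene of another sequence. Over the 20 sets with at least 5 X members, 140 of 162 loci had a peak, 9 sets had one at every X member, and the strongest was 1.79 to 5.01 times the weakest (median 2.71). Over loci alone on their summit, in 19 of these sets, the range was 1.16 to 4.69 times (median 2.52), and the widest was that of Lys-CTT, from 84.8 at K11E4.t5 to 398 at W03G11.t1.

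**Figure D3:**
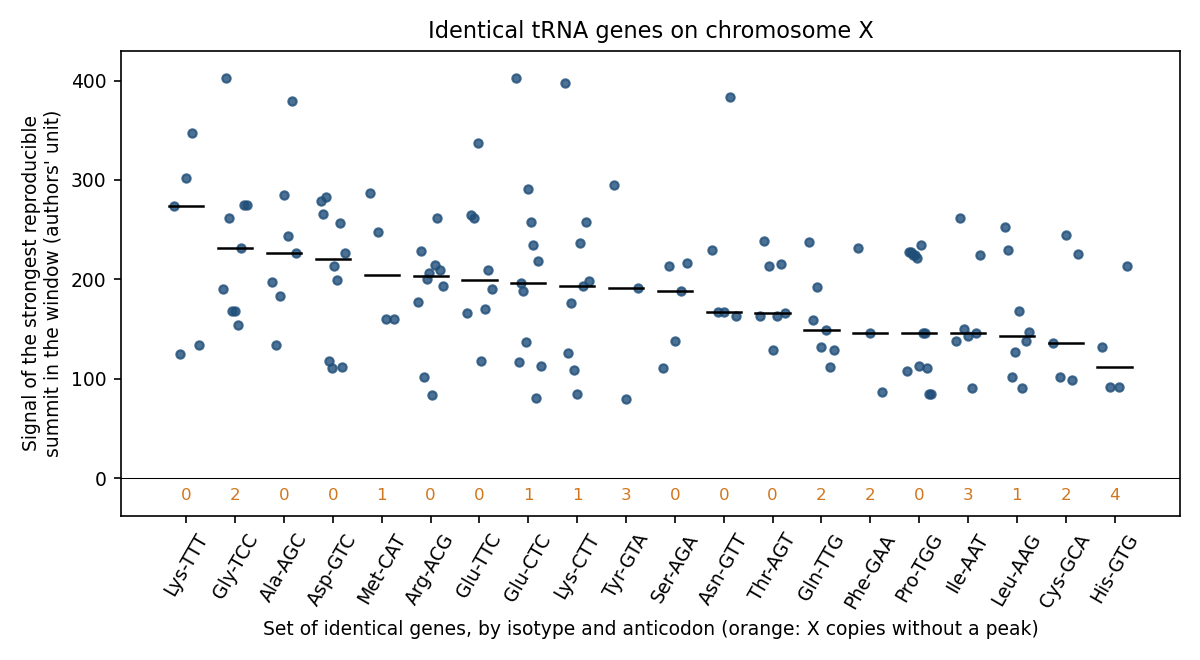
Reproducible signal (y axis, authors' unit) at each X member of the sets of identical genes with at least 5 X members, ordered by median (black line). Each point is 1 locus and the number below counts X copies without a peak, so that the spread is among genes of 1 sequence, some of which share a summit with a gene of another set.

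Within sets the replicates ranked the copies alike to differing degrees. In the 12 sets with at least 6 X members valued in both lists, Spearman's rho between replicates ran from 0.34 to 0.929, with a median of 0.791. The sequence of the Arg-ACG set is found at 10 places on X and nowhere else, while Arg-ACG genes of any sequence number 13 on X and 6 on the autosomes. All 10 copies had a peak, 9 of them alone on their summit. For K01A12.t3 the summit lay 147 bp away, inside the Cys-GCA gene K01A12.t2, and no reproducible peak covered K01A12.t3. F09B9.t2 in unc-115 had the highest signal (261, replicates 96.1 and 166) and T06H11.t3 in unc-58 the lowest (83.4, replicates 54.4 and 108). The replicate 2 value at T06H11.t3 came from the same summit as that of its neighbour T06H11.t2 (207, replicates 105 and 108), 220 bp away. Without that pair and K01A12.t3 (102, replicates 25.8 and 78.9), the other 7 copies had signals of 177 to 261. The replicate 2 value of 78.9 was also that of the neighbours K01A12.t2 and K01A12.t4, so it is not a value of K01A12.t3 alone.

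In the Leu-AAG set, whose sequence is also on X alone, 8 of 9 copies had a peak, from 90.9 at C48C5.t4 to 252 at C04E7.t1. Leu-AAG genes of other sequence on the autosomes had a peak at 7 of 9. The copy without one, C05C9.t2, had a replicate 1 summit of 35.7 and no summit in the other lists. The Tyr-GTA set had peaks at 3 of 6 copies. Of these copies, 4 form the array R11.t4 to R11.t1, with signals of 79.6 at R11.t4, 191 at R11.t1 and no peak between them. Among sets with at least 2 X members, 17 had a peak at each, 15 at some and 1 at none. The exception was Arg-TCG, at F49E7.t3 (pooled 49.9, replicates 19.7 and 27.9), F49E7.t2 (pooled 48.2, replicates 20.6 and 27.5) and F38E9.t2 (pooled 63.1, replicates 31.9 and 31.9).

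Sequences present on both X and autosomes allow a comparison at equal gene sequence. In 25 sets with at least 2 X and 2 autosomal loci with a peak, the X median exceeded the autosomal median in 18, and in 18 and 20 with the replicate 1 and replicate 2 values. With at least 1 such locus on each side it did so in 29 of 39 sets. The ratio of medians had a middle value of 1.27 and ran from 0.622 for His-GTG to 3.70 for Ala-TGC, where 3 X loci stood at a median of 328 and 3 autosomal loci at 88.7. Over all 43 sets with copies on both sides, whether or not they had peaks, 162 of 185 X loci (87.6%) and 190 of 223 autosomal loci (85.2%) had a peak. Some of these signals come from summits shared with a gene of another sequence, as at the Ala-TGC gene F15G9.t1 (379.5, shared with the Ala-AGC gene F15G9.t2). Clustered genes were 135 of 276 on X and 101 of 336 on the autosomes, and loci alone on their summit were not compared apart. The ratio describes these loci and was not tested.

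Clustering divided the loci as well. Of the 276 genes, 141 have no other tRNA gene within 1000 bp and 135 form 54 clusters. Isolated loci had a peak at 124 of 141 (87.9%) and clustered loci at 98 of 135 (72.6%). On the autosomes the order was the other way, with 71.1% of isolated and 82.2% of clustered loci. Split by copies as well, X had peaks at 109 of 113 isolated genes with an identical copy (96.5%), 79 of 106 clustered ones (74.5%), 15 of 28 isolated single genes (53.6%) and 19 of 29 clustered single genes (65.5%). All 61 isolated genes with an identical copy that lie outside protein-coding genes had a peak.

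**Figure D4:**
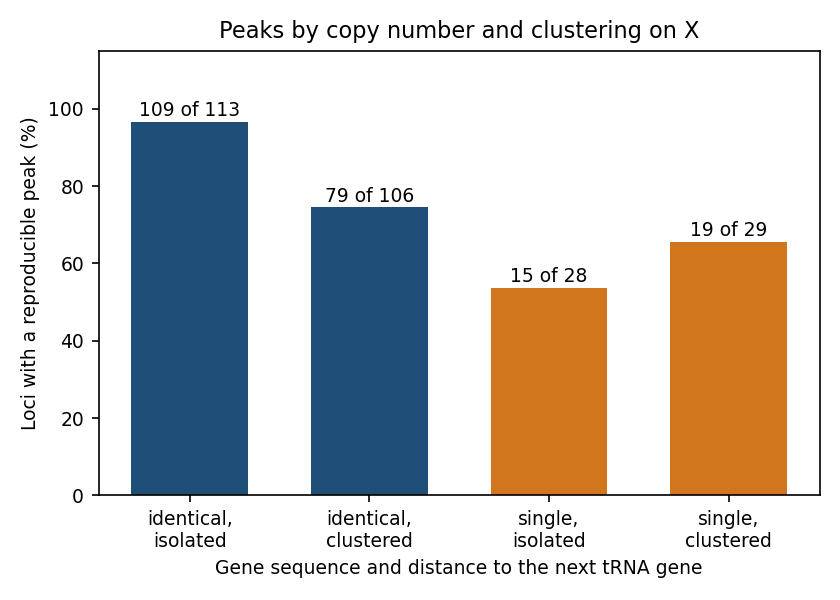
Share of X tRNA loci with a reproducible peak (y axis, %) for genes with an identical copy or found once, isolated or within 1000 bp of another tRNA gene. Bars give the share and the counts above them run from 15 of 28 to 109 of 113.

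Clusters of 2 had peaks at 65 of 78 loci (83.3%) and larger clusters at 33 of 57 (57.9%). Of 39 pairs, 16 shared their strongest summit, 13 had separate strongest summits, 7 had a peak at 1 gene and 3 had none. Sharing the strongest summit does not exclude a second one. F46G11.t1 had a weaker summit of 110 inside the gene, and F02D10.t2 one of 158 at 31 bp. A summit between close genes counts for both, and a gene further along an array keeps a peak only if a summit of its own was called. Some arrays lie in sequence where short reads match several places. The 6 His-GTG genes of F28H6 (X:14135045-14137010) lie in repeats, and 3 of their windows had at most 6.86% of 36-base words that occur once in the genome, against a median of 88.4% over X tRNA loci. F28H6.t2 and F28H6.t7 shared a summit of 92.1, F28H6.t5 had a pooled value of 68.1, and the 3 in between had no summit in any list.

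Other arrays lay in windows of largely unique words, although no word wholly inside their genes with an identical copy is unique. The other cluster of 6, F22F1.t2 to F22F1.t7 (X:8154445-8156707), alternates Ser-AGA and Asp-GTC genes before a Met and an Ile gene. Its Ser and Asp genes shared summits by pairs, with 213 at F22F1.t2 and F22F1.t3 and 138 at F22F1.t4 and F22F1.t5. F22F1.t7 (Ile-AAT) had 149.8 and F22F1.t6 (Met) had no summit in any list, with 88.3% unique words in its window. In ajm-1, a gene of the epithelial junction, 3 of 5 Gln genes had a peak. H08J11.t5 and H08J11.t1 shared 131.4, H08J11.t3 had 149, and H08J11.t4 and H08J11.t2 had no pooled summit. In K01A12.3, 3 of 5 Arg and Cys genes had a peak, with 136 at K01A12.t4 and a shared 102 at K01A12.t2 and K01A12.t3.

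Over all X loci, 10 windows had under 60% unique words, and 2 of these had a peak, against 220 of the other 266 (82.7%). The 2 were F28H6.t7 and C28G1.t5, whose summits lay 193 and 198 bp away, inside the neighbouring genes F28H6.t2 and C28G1.t4. Low uniqueness of the whole window thus went with missing peaks at few loci, and 46 loci without a peak had at least 60%. The window includes the flanks, however. No 36-base word wholly inside a gene with an identical copy occurs once in the genome, so the unique words there reach into or lie in the flanks. How reads that match several places were handled was not stated, and its part in the missing peaks was not tested.

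Protein-coding genes host 96 of the X tRNA genes, 95 of them wholly in introns, in 68 hosts. Loci inside a host had a peak at 74 of 96 (77.1%) and loci outside at 148 of 180 (82.2%), with medians of 178 and 189. On the strand of the host, 38 of 51 had a peak (median 172), and on the opposite strand 36 of 45 (median 208). The 4 strongest places on the host's strand were the him-4 pair, C28G1.t1, C02F12.t1 and F52H2.t1 in aat-3 (283). On the opposite strand they were F41D9.t3, C02B4.t2, C11E4.t1 (Ala-AGC, 285, in C11E4.8) and F38G1.t2 (Asp-GTC, 279, in egl-17). egl-17 codes for a fibroblast growth factor, and its peak is counted here as that of the tRNA gene.

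Genes found once and lying inside a host had a peak at 6 of 16 (37.5%), and those outside at 28 of 41 (68.3%). Genes with an identical copy inside a host had a peak at 68 of 80 (85%). Of 16 hosts with several tRNA genes, unc-58 and tbc-12 had a peak at each of 3, and wrt-9, a gene of the hedgehog-like warthog family, had none at its 3 Ile-AAT genes.

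The 54 loci without a peak were not alike. In 27 the pooled relaxed list had a summit in the window, with signals of 19.1 to 79.0 and a median of 48.2, and in 27 it had none. There were 19 loci with no summit in any of the 3 relaxed lists. In order of position, the first 10 without a pooled summit were B0344.t2, B0344.t1, Y75D11A.t2, ZK154.t1, ZK154.t4, F22F1.t6, F08F1.t3, K01A12.t1, K01A12.t5 and F12D9.t6. Neighbouring peaks were common, since 23 of the 54 had a reproducible summit outside the window but within 1000 bp, and 13 had none within 10 kb. ZK154.t4 (Gly-TCC) is such a case, as the replicate 1 summit of 93.9 in its window is also that of its neighbour ZK154.t3, which had the reproducible peak (262).

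By sequence, 31 of the 54 have an identical copy, and for 26 of these another X copy had a peak. Only 4 of the 31 are isolated: F56F10.t1 (Tyr-GTA), F47A4.t1 (Ile-TAT), F17H10.t1 (Gly-GCC) and F38E9.t2 (Arg-TCG), all in introns on the strand of the host. F17H10.t1 had summits of 61.1 and 93.9 in the replicate lists, both among the 1432 strongest, while the pooled list held no summit there. Along the chromosome, 9 of 12 loci between 1 and 2 Mb lacked a peak, and 6 of these 9 are Arg genes. The 3 with a peak there were F56C3.t1 (Gly-TCC, 190.1), T26C11.t1 (Glu-TTC, 166) and Y59E1B.t2 (Pro-CGG, 203). The densest stretch, from 8 to 9 Mb, had peaks at 42 of 51 loci.

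The 57 genes found once were compared with the nearest other tRNA gene by the number of base changes, insertions and deletions. The 34 with a peak differed by a median of 1 (range 1 to 20) and the 23 without by a median of 2 (range 1 to 41). Within 3 changes lay 26 of the 34 and 13 of the 23. Single changes were found in both classes. D1009.t1 (G29T, against Gln-TTG) had a signal of 133, while H08J11.t2 (G63A, against the same genes) had no summit in any list. Against Ser-AGA, Y7A5A.t5 (A3C) had no peak, and Y7A5A.t1 (C53T) had 176 on a summit that it shares with the Ser-CGA gene Y7A5A.t4 and that is therefore not its own value alone. M163.t1 differs from Lys-CTT genes by C2T, C3A, C4A, G5A, G6A and T7A, in the strand that forms the acceptor stem of the tRNA, and had no peak.

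Summits lay inside or close to the genes. Measured from the 5′ end in the direction of transcription, the summit at X loci with a peak was at a median of 11 bp, with quartiles at -10.75 and 44. At the 124 isolated loci, which have no tRNA neighbour within 1000 bp, the median was 12 bp and 100 summits (80.6%) were inside the gene. Isolated autosomal loci had a median of 15 bp. The replicate lists gave medians of 15.5 and 15 bp at the same X loci.

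**Figure D5:**
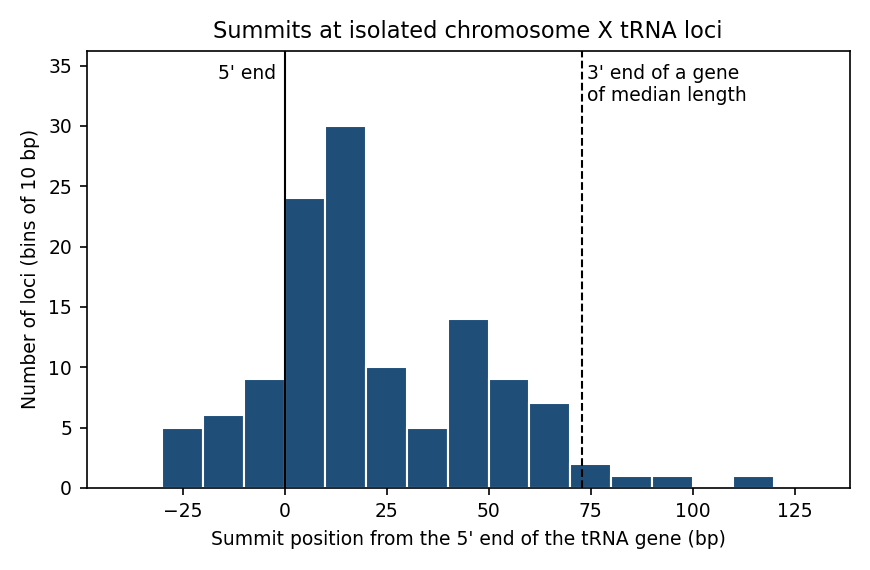
Position of the reproducible summit from the 5′ end of the gene (x axis, bp, positive in the direction of transcription) at the 124 isolated X tRNA loci with a peak, in bins of 10 bp (y axis, number of loci). The solid line marks the 5′ end and the dashed line the 3′ end of a gene of median length, and counts are highest from 0 to 19 bp.

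From 0 to 29 bp there were 64 summits, from 30 to 71 bp 36, and 24 lay outside these bounds, which were drawn after the histogram was seen. Between 30 and 39 bp there were 5 summits on X and 15 at the 167 isolated autosomal loci, which had 67 from 0 to 29 bp, 50 from 30 to 71 bp and 50 outside. The place of a summit in a given gene was not repeated closely. With both replicates read, 30 loci had both summits in the front range, 16 had both in the rear range, 28 had 1 in each and 50 had at least 1 outside. Over loci with a peak the replicate summits lay a median of 24 bp apart, which is a large step in a gene of this length.

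The promoter words were present at loci with and without a peak. On the gene strand, the B box word GTTCNANNC was in 97.3% of X genes with a peak, 96.3% without, 94.9% of autosomal tRNA genes and 58.6% of the X pseudogenes. The A box word TNGNNNAG within the first 30 bases was in 84.7%, 83.3%, 82.7% and 86.2% of the same groups. A TTTT in the 30 bases after the gene followed 99.5%, 96.3%, 98.8% and 69% of them. Of 8 X genes without the B box word, 6 had a peak. Among them, the Pro-AGG genes C16B8.t2 and C16B8.t3 shared a summit of 243, which lay 13 and 85 bp from them, and no reproducible peak covered C16B8.t3. The peak of C28G1.t5 had its summit 198 bp away, inside the Gly-TCC gene C28G1.t4, which has the word. A match to these letters is a description of the sequence, and a missing match says nothing about binding.

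Genes whose proteins make or process tRNA were read with the same lists. The list held 15 genes, for subunits of RNA polymerase III (rpc-1, rpc-2, rpc-11), TFIIIB (brf-1, tbp-1), TFIIIC (tftc-1, tftc-3, tftc-5), the polymerase III repressor mafr-1, the RNase Z gene hoe-1, RNase P proteins (popl-1, popl-4, popl-5, popl-7) and the tRNA exporter xpo-3. None of the 15 had a reproducible summit within 1000 bp before or 300 bp after a transcript start, where 3.39% of all protein-coding genes had one. In the pooled relaxed list 8 had a summit, with signals of 58.5 at rpc-2, 53.8 at hoe-1, 45.6 at popl-1, 44.5 at tftc-3, 39.4 at rpc-1, 33.1 at xpo-3, 26.6 at popl-7 and 24.0 at mafr-1. These are below the lowest value of the reproducible list, which follows from the lack of a reproducible summit and is no separate result.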

How the data were processed

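The authors' deposited lists of ChIP-seq peaks on ce11 were used: the reproducible list and the relaxed lists of the pooled reads and of each of the 2 replicates. The signal column of these lists is the authors' enrichment value per peak, as deposited, and was used unchanged. Per the file list the authors deposited, each relaxed list was made from alignments and a control, and the reproducible list from the replicate lists and the pooled list. Peak caller, aligner and the IDR threshold were not given in the sources used here. Lists on ce10 and the control were not analysed here. Per the labels the antibody is anti-GFP in the description and die-1 in another field, and the description was followed.

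tRNA genes came from Ensembl 115 and isotypes and sequences from RefSeq on the same assembly. Anticodons were read by rule from the spliced sequence: a loop with T before the anticodon, a stem of at least 4 of 5 pairs, and a codon match to the isotype. A summit counted within 200 bp of a gene, and the strongest gave the value. Replicate lists were shortened to the 1432 strongest peaks for counts. Clusters joined genes at most 1000 bp apart. Uniqueness is the share of 36-base words of a window found once in the genome. With 1 group there was no contrast over samples, and no test was run over loci. Alternatives were other extensions and overlap rules, stricter and relaxed lists, each replicate alone, merged windows and unique windows. Counting was checked on simulated data.

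Members and lists were chosen with earlier results of these data known. The naming rule took the 10 strongest loci, the 5 weakest with and 5 strongest without a peak, the first 10 without a pooled summit, and the strongest of each isotype. It also took the largest copy sets and clusters, the strongest loci inside hosts, the extreme replicate ratios and the strongest X pseudogene. Other loci are named as members of a set, an array or a stretch, or as single-base cases, and were chosen after their values were seen. Software was matplotlib 3.10.9 for plots and pandas 2.3.3, scipy 1.17.1 and numpy 2.4.6 under Python 3.11.15.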

Additional observations from a re-analysis of the deposited data

How the results depend on the processing

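No paired analysis was possible because the series has 1 group and no test. Of 94 values recomputed under 12 alternatives, 80 stayed within set bounds and 14 moved. For counts the bound was a factor of 1.5, which is wide. For medians it was the standard deviation of the 2 single-replicate values, or 1 if larger. With a summit counted only for its nearest tRNA gene, 199 X loci (72.1%) had a peak, against 69% of autosomal ones. Clustered X loci with a peak then numbered 75 (55.6%), which is within that bound. With no extension the counts with a peak fell to 132 X loci, 154 autosomal loci, 112 X loci with an identical copy and 32 clustered X loci, and the median summit offset was 20 bp, since shared and nearby summits then drop out. X pseudogenes with a peak numbered 0 with no extension, with 100 bp, in the upper 50% of peaks by signal, with a peak over at least 50% of the gene, and in either replicate alone, and 8 with all pooled relaxed summits. Median signal at X loci was 79.7 and 107 in the replicates alone, whose signals have their own scale, and counts of X loci there were 207 and 224. The X share exceeded the autosomal share, the share with an identical copy that of single genes, and the isolated share the clustered share in all 12. The margin of X over the autosomes depended on the rule. It ran from 90.2% against 89.9% with all pooled relaxed summits to 68.8% against 56% in the upper 50% of peaks by signal. The share outside hosts exceeded that inside in 9 of 12. It did not with no extension (45% against 53.1%), with 100 bp (75% for each) or when a summit counted only for its nearest tRNA gene (71.7% against 72.9%). The alternative of at least 60% unique words was chosen after seeing the data and not applied to pseudogenes, and merged windows give no offset. Without counts in the files, no depth or counting error can be given.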

Other observations

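F42G10.t1 (Arg-ACG) and F17H10.t1 (Gly-GCC) had no summit in the pooled list although both replicate lists held strong ones in their windows. F42G10.t1 had 89.6 in replicate 1 (rank 198) and 69.9 in replicate 2 (rank 668), and F17H10.t1 had 61.1 (rank 519) and 93.9 (rank 376). Across the nuclear genome, 961 summits among the 1432 strongest of both replicates lay within 200 bp of each other, and 3 of them (0.312%) had no pooled summit within 200 bp. None of the 3 lay under a pooled peak, and 2 of the 3 were these X tRNA loci. Of the 961, 397 lay at tRNA loci, so with 3 cases this count says little about tRNA loci. The reproducible list is drawn from pooled peaks, so these loci could not enter it. The cause was not tested.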
